A study of Mus musculus with 12 samples.

Results

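The genes described here are the 10 that encode the subunits of the transcription factor NF-kB and its main inhibitors, out of 24445 genes counted: Nfkb1, Nfkb2, Rel, Rela and Relb for the subunits, Nfkbia, Nfkbib and Nfkbie for the classical IkB inhibitors, Nfkbiz for a nuclear IkB protein, and Tnfaip3 for the ubiquitin-editing enzyme A20. They were chosen by name, with earlier results of these data known, and each was represented by the transcript with the highest total count. All 10 passed the filter on low counts in every comparison. Messenger RNA was measured in macrophages grown for 7 to 8 days from bone marrow of C57BL/6 mice, in medium with 15% of the supernatant of L929 cells as a source of M-CSF. The mice were DOT1L wild type (WT) or carried a myeloid knockout (KO) of DOT1L, a histone methyltransferase that modifies lysine on histone H3 within transcribed genes. Cells were left untreated or received 10 ng/mL lipopolysaccharide (LPS) from Escherichia coli O111:B4 for 3 hours, with 3 libraries in each of the 4 groups. The labels name Lyz2 for the strain, the gene whose promoter commonly drives Cre in myeloid cells, and give neither the deleted exons, nor the age of the mice, nor how many were used per library. They call the libraries biological replicates but do not say which culture or animal each came from, so p-values measure the spread between these libraries.

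NF-kB is a family of dimers. In resting macrophages most of them are held in the cytoplasm by IkB proteins, until TLR4, the receptor for LPS, activates the IKK kinases, which mark the IkB proteins for degradation. The freed dimers enter the nucleus and switch on inflammatory genes, and among their known targets are genes for several of their own subunits and inhibitors, which forms a well-described feedback loop. In the bulk samples used here, fewer cells of a type and less RNA per cell cannot be told apart, and mRNA says nothing on where the proteins are or how long they last.

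The promoters of the 7 members with a window in the RefSeq table (GRCm38.p6, the assembly of mm10) were searched for a kB consensus. This is a 10-base pattern for sites that NF-kB dimers bind, taken here as GGGRNWYYCC. In it R is A or G, W is A or T, Y is C or T, and N is any base. Windows ran from 250 bases before to 50 after an annotated start and were read on both strands. A match stood in 5 of the 7 members, namely Tnfaip3, Rel, Nfkbia, Nfkbie and Nfkb2, and in 7 of their 10 windows, against 4.51% of 32851 windows and 5.14% of 27025 genes in the whole table. A looser pattern, 3 G bases and 2 C bases with any 5 bases between, which every kB consensus match also fits, stood in 6 of the 7 and in 53.5% of all genes. All 10 members rose with LPS, and the windows below were picked from those that hold a match. They are written 5′ to 3′ on the strand of the gene, with kB consensus matches in capitals, and Rela is added as a member with no match. They are chr10:19015361-19015660 on the minus strand for Tnfaip3, chr12:55492598-55492897 on the minus strand for Nfkbia, chr11:23770920-23771219 on the minus strand for Rel, chr17:45555450-45555749 on the plus strand for Nfkbie, chr19:46304487-46304786 on the plus strand for Nfkb2 and chr19:5637291-5637590 on the plus strand for Rela.
Tnfaip3: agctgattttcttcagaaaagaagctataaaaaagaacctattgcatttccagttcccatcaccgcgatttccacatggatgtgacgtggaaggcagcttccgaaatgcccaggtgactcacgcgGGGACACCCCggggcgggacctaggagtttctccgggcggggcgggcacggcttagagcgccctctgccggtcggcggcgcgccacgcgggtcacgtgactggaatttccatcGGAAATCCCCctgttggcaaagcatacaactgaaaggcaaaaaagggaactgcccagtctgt
Nfkbia: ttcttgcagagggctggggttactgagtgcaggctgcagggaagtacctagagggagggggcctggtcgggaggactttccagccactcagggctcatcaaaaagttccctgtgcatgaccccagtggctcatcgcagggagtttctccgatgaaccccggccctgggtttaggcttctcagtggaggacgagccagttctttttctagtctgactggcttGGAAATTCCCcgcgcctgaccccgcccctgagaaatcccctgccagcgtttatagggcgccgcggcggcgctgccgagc
Rel: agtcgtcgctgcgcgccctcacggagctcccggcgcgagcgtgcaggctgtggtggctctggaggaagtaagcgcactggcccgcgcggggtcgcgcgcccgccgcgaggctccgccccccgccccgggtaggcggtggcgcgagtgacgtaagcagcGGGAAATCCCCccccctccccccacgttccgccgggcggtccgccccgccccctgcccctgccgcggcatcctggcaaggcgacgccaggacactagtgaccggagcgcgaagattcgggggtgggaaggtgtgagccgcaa
Nfkbie: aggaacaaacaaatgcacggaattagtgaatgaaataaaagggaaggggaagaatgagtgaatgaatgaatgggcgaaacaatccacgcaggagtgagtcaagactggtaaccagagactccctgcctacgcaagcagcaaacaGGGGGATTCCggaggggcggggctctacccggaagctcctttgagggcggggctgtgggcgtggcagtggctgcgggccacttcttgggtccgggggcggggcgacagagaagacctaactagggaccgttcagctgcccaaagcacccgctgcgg
Nfkb2: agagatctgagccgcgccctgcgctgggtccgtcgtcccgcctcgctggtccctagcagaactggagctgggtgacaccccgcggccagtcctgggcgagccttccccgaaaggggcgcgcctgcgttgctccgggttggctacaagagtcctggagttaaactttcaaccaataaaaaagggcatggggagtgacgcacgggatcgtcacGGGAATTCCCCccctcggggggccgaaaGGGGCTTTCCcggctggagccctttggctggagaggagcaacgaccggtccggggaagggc
Rela: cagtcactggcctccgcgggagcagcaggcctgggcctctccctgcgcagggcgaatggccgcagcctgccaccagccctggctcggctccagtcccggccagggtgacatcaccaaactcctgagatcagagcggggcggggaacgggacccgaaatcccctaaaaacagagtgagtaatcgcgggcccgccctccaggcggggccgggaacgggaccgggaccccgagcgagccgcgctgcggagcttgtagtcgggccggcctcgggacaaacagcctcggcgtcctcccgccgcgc
The matches began at 125 and 12 bases before the start in Tnfaip3, 29 before it in Nfkbia and 106 before it in Nfkbie. In Rel, 3 matches on both strands overlapped at 92 and 91 bases before the start, and the capitals cover all 3. The Nfkb2 window shown had matches at 39, 38 and 11 bases before its start, of which the first ones overlap. Both other windows of this gene, chr19:46305445-46305744 and chr19:46305680-46305979, had a match as well. Those windows overlap and share a match, which is counted in both. Nfkbib, which is not shown, had neither pattern in its window. The other Tnfaip3 window, chr10:19011914-19012213, is not shown either and had no kB consensus match. These are matches of letters, and binding was not measured. A site whose letters differ from the consensus used would not be marked.

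The libraries held 8.64 to 13.54 M (1e6) counts over 1 transcript per gene, so 3 counts correspond to 0.222 to 0.347 counts per 1e6 (CPM), and all members lay well above that. In a principal component analysis, treatment made up component 1 (88.5% of the variance). On component 2 (4.2%) both WT libraries numbered 1 lay far from the rest, at 31.5 untreated and 27.8 with LPS, against -11.8 to 1.6 in the other 10. Both also held the fewest counts, 8.98 M untreated and 8.64 M with LPS. The libraries numbered 2 came from males (Ddx3y at 94.2 to 106 CPM) and the others from females, in each group alike. Dot1l was at 82.4, 111.2 and 110.6 CPM in untreated WT and 97.8, 85.8 and 86.4 CPM in untreated KO, and at 67.3, 69.2 and 60.6 CPM against 73.3, 65.3 and 70.2 CPM with LPS. These counts cover the whole transcript and check nothing about the deletion. The 10 macrophage markers, among them Csf1r, Adgre1 and Cd68, were at 1 CPM or more in every library. They were not all steady with LPS: in each genotype 5 rose and 1 fell at an adjusted p under 0.05. The marker that fell was Cebpa, from a mean of 84.9 to 2.75 CPM in WT and from 92.7 to 2.13 CPM in KO. The summed neutrophil markers were at 39.1 to 74.1 CPM in WT and 55.3 to 58.4 CPM in KO untreated. With LPS they were at 101.2 to 170.5 CPM and 120.4 to 136.5 CPM. Most of it was Csf3r, highest in WT replicate 1 (45.9 CPM untreated, 121.7 CPM with LPS). The summed stromal markers were at 8.74 CPM or less in every library. Lyz2 was lower in KO, by 1.17 ± 0.10 on the log2 scale with LPS (adjusted p = 0.00143) and by 1.16 ± 0.11 untreated (adjusted p = 0.0784). In KO with LPS the dendritic cell marker Kmo (1.21 ± 0.21, adjusted p = 0.025) and the lymphocyte marker Lck (0.68 ± 0.12, adjusted p = 0.0279) were higher. The summed dendritic cell markers overlapped between genotypes, at 116.6 to 144.0 CPM in WT and 115.9 to 170.6 CPM in KO with LPS. Most of it was Itgax, so the sum says little on the other markers. All 6 tested markers were higher in KO with LPS (median log2 difference 0.79). Itgax and Zbtb46 overlapped between genotypes, and Kmo, Batf3, Xcr1 and Ccr7 did not. Batf3 was at 2.39 to 3.34 CPM in WT and 4.7 to 6.65 CPM in KO. Xcr1 was at 0.749 to 1.71 CPM in WT and 2.58 to 2.73 CPM in KO. Apart from Kmo, the smallest adjusted p was that of Batf3 (edgeR quasi-likelihood test, 0.0617). The summed lymphocyte markers ran from 26.1 to 33.3 CPM in WT and 40.4 to 51.9 CPM in KO with LPS. Most of that sum was Lck, at 24.1 to 28.0 CPM in WT and 35.8 to 46.6 CPM in KO with LPS and under 1 CPM in every untreated library. With LPS, 3 of the 10 lymphocyte markers were at 0 in every library of a group: Cd3e, Cd79a and Ncr1 in WT, and Cd3g, Pax5 and Ncr1 in KO. Their part in the results below was not tested.

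The first comparison asked how LPS changed the mRNA of each subunit and inhibitor. All 10 rose with LPS in WT and all 10 rose in KO, by log2 fold changes of 1.72 to 6.60 in WT and 1.77 to 6.63 in KO (edgeR quasi-likelihood test, adjusted p from 4.07e-13 to 2.52e-08 in WT and from 2.41e-13 to 7.16e-09 in KO). Of the 11984 genes tested, 27.6% were called higher and 29.8% lower with LPS in WT, and 30.3% higher and 30.9% lower in KO. A gene is called at an adjusted p under 0.05. The members' median change was 3.15 in WT and 3.20 in KO, where that of all genes was -0.05 and -0.02. The median was 4.16 for the 3 classical IkB genes and 2.72 for the 5 subunits in WT, and 4.49 and 2.76 in KO, with Nfkbib (2.85 and 2.76) inside the range of the subunits. Scaling by library totals in place of TMM moved the median of all genes to -0.59 in WT and -0.62 in KO and changed the split of calls from 3309 higher and 3567 lower to 1723 and 7621 in WT, and from 3633 and 3700 to 1777 and 7823 in KO. The members' median was then 2.60 and 2.61, and all 10 were still called higher in both genotypes. In the sentences that follow, the values of replicates 1, 2 and 3 are given in that order in TMM-scaled CPM, and errors after ± are standard errors of log2 fold changes unless called SD.

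**Figure D1:**
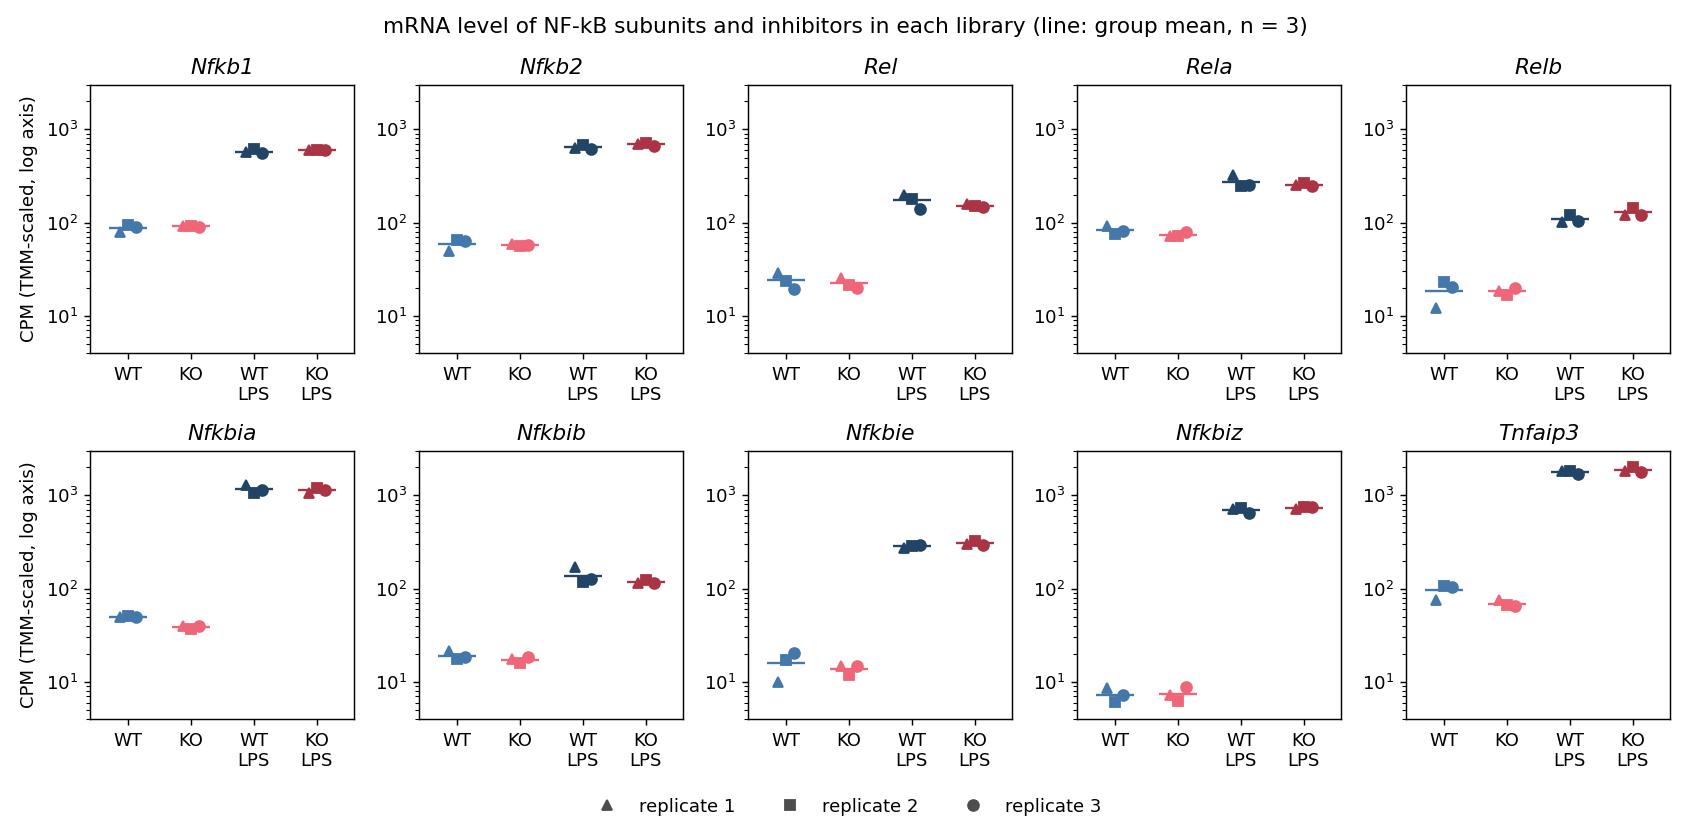
TMM-scaled CPM of the 10 genes in each of the 12 libraries on a shared log axis, with the mean of the 3 libraries of a group as a line and a symbol for each replicate number. Every LPS-treated library lies above every untreated library for all 10 genes, while the WT and KO points of a condition lie close together.

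Among the subunits, Nfkb2, the precursor of p52 in the noncanonical pathway, rose the most. It went from 49.2, 65.3 and 62.9 CPM to 634.6, 675.0 and 624.1 CPM in WT and from 59.4, 56.3 and 57.3 CPM to 702.1, 723.3 and 671.1 CPM in KO. The log2 fold change was 3.44 ± 0.11 in WT, or 10.9-fold, and 3.60 ± 0.11 in KO. Rel encodes c-Rel, known for its part in cytokine genes such as Il12b. It went from 28.8, 23.8 and 19.6 CPM to 199.7, 179.2 and 140.6 CPM in WT (2.85 ± 0.15) and from 25.6, 21.6 and 19.9 CPM to 157.6, 151.5 and 147.4 CPM in KO (2.76 ± 0.15). Nfkb1, the precursor of p50, was among the steadiest members between libraries. It went from 80.1, 94.6 and 88.8 CPM to 570.3, 612.6 and 552.2 CPM in WT (2.72 ± 0.08) and from 92.4, 91.9 and 89.8 CPM to 601.7, 594.4 and 603.8 CPM in KO (2.71 ± 0.08). Relb is the usual partner of p52. It went from 12.1, 23.1 and 20.2 CPM to 101.0, 120.7 and 103.3 CPM in WT (2.54 ± 0.18) and from 18.5, 16.8 and 20.1 CPM to 121.8, 144.8 and 120.9 CPM in KO (2.80 ± 0.18). The untreated WT replicate 1 had the lowest Relb of all libraries, and its change of 3.06 stood above the 2.38 and 2.35 of the other WT pairs. Rela, the p65 subunit that carries the transactivation domain of the classical dimer, changed least. It went from 91.4, 76.0 and 81.6 CPM to 323.2, 246.2 and 252.3 CPM in WT, a 3.3-fold rise (1.72 ± 0.11), and from 72.8, 72.3 and 78.6 CPM to 250.9, 263.4 and 250.0 CPM in KO (1.77 ± 0.11). Ranked by log2 fold change among all 11984 genes in WT, the subunits stood between 390 for Nfkb2 and 950 for Rela, and in KO between 351 and 970.

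The classical IkB genes rose more, apart from Nfkbib. Nfkbia encodes IkB alpha, the inhibitor that is degraded and remade fastest in the feedback loop. It went from 49.2, 51.2 and 49.5 CPM to 1293.5, 1059.0 and 1131.6 CPM in WT, 23.2-fold (4.54 ± 0.10), and from 39.4, 36.6 and 39.7 CPM to 1064.4, 1194.1 and 1128.0 CPM in KO, 29.3-fold (4.87 ± 0.10). The LPS-treated genotypes overlapped, and the untreated ones did not. Nfkbie, the gene of IkB epsilon, went from 9.97, 17.0 and 20.3 CPM to 274.1, 286.6 and 295.4 CPM in WT (4.16 ± 0.19) and from 14.7, 11.8 and 14.8 CPM to 304.2, 326.3 and 297.1 CPM in KO (4.49 ± 0.19). As with Relb, the lowest untreated value was that of WT replicate 1, whose change of 4.78 stood above 4.08 and 3.86 in the other WT pairs. Nfkbib, the gene of IkB beta, rose about as much as the subunits, from 21.2, 17.7 and 18.5 CPM to 169.8, 118.4 and 125.9 CPM in WT (2.85 ± 0.13) and from 17.5, 16.1 and 18.4 CPM to 113.7, 123.9 and 116.1 CPM in KO (2.76 ± 0.13). Part of its span is shared with Ccer2, as that of Nfkb2 is with Psd and the lncRNA 4833438C02Rik and that of Nfkb1 with the lncRNA Gm46827. Since no source gives the strand used in counting, reads in those stretches cannot be assigned to one gene.

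The largest rise was that of Nfkbiz, which encodes IkB zeta, a nuclear protein made after TLR stimulation that helps to activate a later wave of genes such as Il6. It went from 8.51, 6.11 and 7.22 CPM to 721.5, 725.1 and 653.5 CPM in WT and from 7.15, 6.26 and 8.71 CPM to 712.7, 741.5 and 743.0 CPM in KO. The rise was 96.7-fold in WT (6.60 ± 0.14) and 98.9-fold in KO (6.63 ± 0.14), which placed the gene at rank 93 of 11984 in WT and 91 in KO. Tnfaip3 encodes A20, which removes and remodels ubiquitin chains upstream of IKK and so dampens the signal. It went from 75.1, 107.7 and 104.8 CPM to 1826.5, 1816.8 and 1699.6 CPM in WT, 18.6-fold (4.21 ± 0.14), and from 75.0, 66.0 and 64.5 CPM to 1836.4, 2024.1 and 1774.8 CPM in KO, 27.4-fold (4.78 ± 0.14). The genotypes overlapped with LPS.

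**Figure D2:**
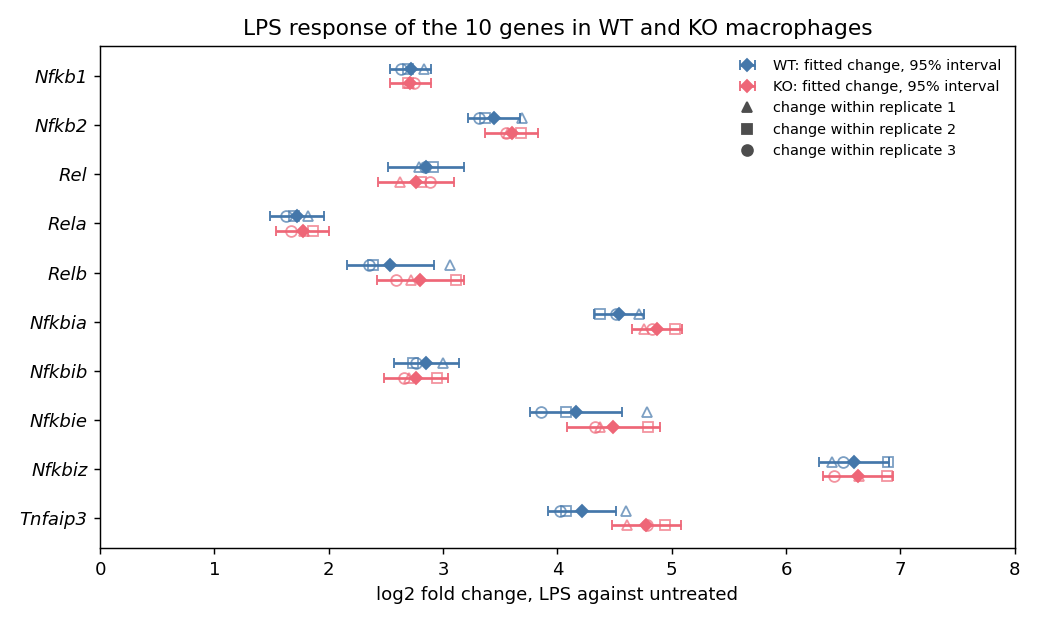
Log2 fold change with LPS of each gene in WT (blue) and KO (red), with filled diamonds for the fitted change, bars for its 95% interval, and open symbols for the change between same-numbered libraries. Nfkbiz lies far to the right at 6.60 and 6.63, Rela lowest at 1.72 and 1.77, and the WT intervals overlap those of KO for all 10 genes.

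The order of the members' levels was taken per transcript length, from the authors' RPKM. In untreated WT cells Nfkbia (33.5 ± 2.22 RPKM, SD, n = 3) and Rela (32.3 ± 1.53) were highest and overlapped. Below them, with no overlap with Rela, came Tnfaip3, Nfkb1, Nfkb2 and Nfkbib at 23.0, 22.7, 19.7 and 14.8 RPKM, each overlapping with the next. Rel, Relb and Nfkbie followed at 9.80, 8.99 and 6.91 RPKM, and Nfkbiz lay apart at 1.99 RPKM. In untreated KO cells Rela (30.6 ± 1.85) stood above Nfkbia (27.2 ± 1.64) with no overlap, and Tnfaip3 (17.2 ± 1.49) came after Nfkb1 (24.7 ± 0.36) and Nfkb2 (20.1 ± 0.77). With LPS Nfkbia and Tnfaip3 led in both genotypes: Nfkbia was at 529.6 ± 26.7 RPKM in WT and 528.3 ± 21.1 in KO, then Tnfaip3 at 290.1 ± 14.3 and 313.0 ± 13.9, Nfkb2 at 145.8 ± 12.0 and 161.6 ± 3.38, and Nfkbiz at 131.0 ± 7.79 and 140.4 ± 3.79 (SD, n = 3). Nfkbiz thus moved from the last place to the fourth. Relb was last with 35.7 RPKM in WT and 43.4 in KO, and in KO it overlapped with Rel. The authors' RPKM were made in separate tables for each condition divided by 1 constant per library, so ratios between conditions were taken from CPM instead.

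Shares within a library do not depend on its scaling. Of the summed RPKM of the 5 subunits, Rela took 34.8% ± 4.44 in untreated WT and 18.1% ± 2.40 with LPS, and 32.4% ± 1.36 and 16.3% ± 0.19 in KO (SD, n = 3). Nfkb2 moved the other way, from 20.9% ± 2.48 to 36.1% ± 1.60 in WT and from 21.3% ± 0.30 to 37.9% ± 0.45 in KO, and it was the most abundant subunit mRNA in all 6 LPS-treated libraries. Nfkb1 stayed between 22.9% and 27.1% in all 12 libraries. Among the classical IkB genes, Nfkbia made up 60.7% ± 1.63 of the RPKM in untreated WT, 57.2% ± 0.99 in untreated KO, and 77.1% ± 0.46 and 77.0% ± 0.57 with LPS.

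**Figure D3:**
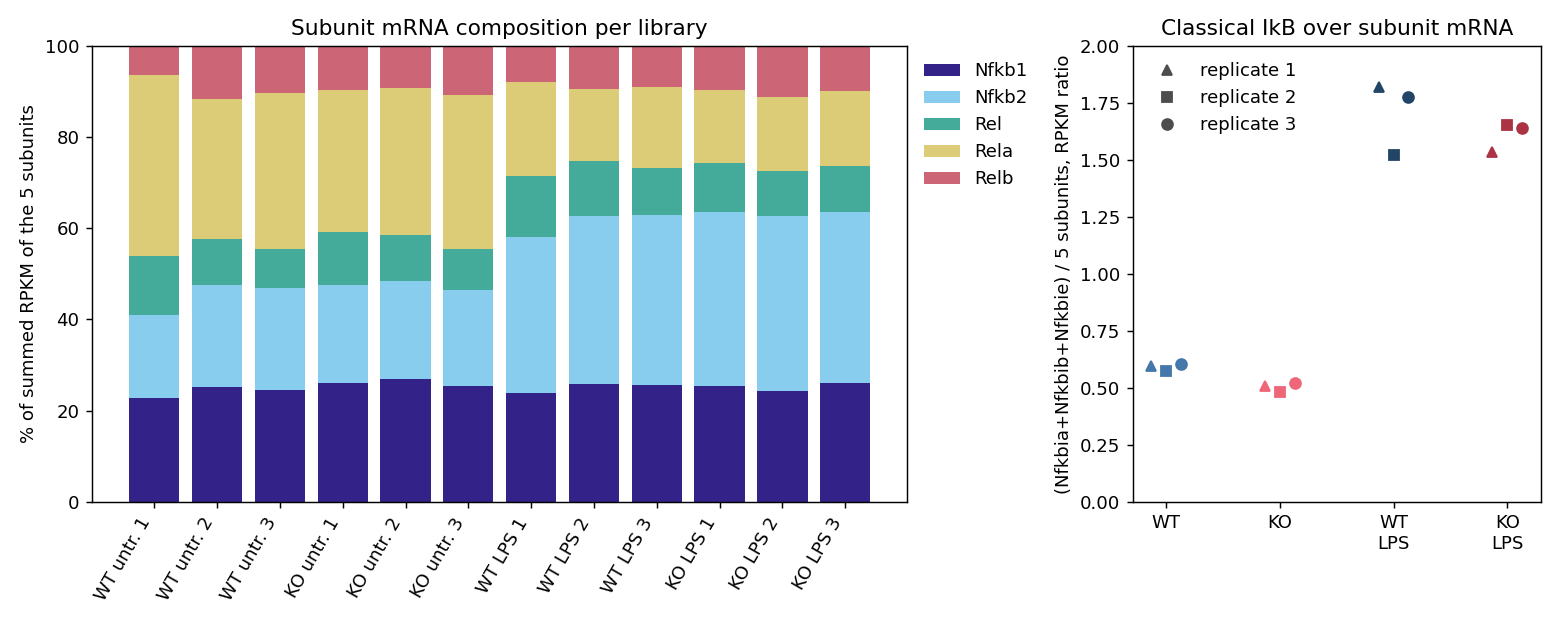
Left, share of each subunit in the summed RPKM of the 5 subunits in each of the 12 libraries, as stacked bars that reach 100%. Right, ratio of the summed RPKM of Nfkbia, Nfkbib and Nfkbie to that of the 5 subunits, 1 point per library: the untreated KO libraries (0.481 to 0.522) lie below the untreated WT libraries (0.574 to 0.604), and the LPS-treated groups overlap.

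The second comparison set KO against WT in untreated cells. None of the 10 members passed the test, and the percentage of all 11622 genes called was 0% as well. Nfkbia and Tnfaip3 had the lowest values in KO relative to WT, and they were the 2 members with an unadjusted p under 0.05, as were 841 of all genes. DESeq2 called 49 genes and limma-voom 0, with no member among them. For Nfkbia the untreated WT libraries were between 49.2 and 51.2 CPM and the KO libraries between 36.6 and 39.7 CPM, so the groups were apart, by a log2 difference of -0.35 ± 0.08 (95% interval -0.54 to -0.16, adjusted p = 0.334). For Tnfaip3 the difference was -0.46 ± 0.14 (95% interval -0.79 to -0.14, adjusted p = 0.459). The groups of Tnfaip3 were parted only by the 75.1 CPM of WT replicate 1 against the 75.0 CPM of KO replicate 1, and in the authors' RPKM they overlapped, at 16.9 to 26.5 in WT and 16.3 to 18.9 in KO. The 2 of 10 members without overlap compare with 15.2% of all genes tested.

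Both genes passed the threshold once WT replicate 1 was left out, while the size of the Nfkbia difference hardly moved. Without that library, Nfkbia differed by -0.36 ± 0.08 (adjusted p = 0.011) and Tnfaip3 by -0.61 ± 0.07 (adjusted p = 9.77e-05), each lower in KO and past the threshold, in a fit that called 749 genes, or 6.34% of the 11816 tested. Leaving out any other untreated library gave log2 differences of -0.38 to -0.31 for Nfkbia and -0.54 to -0.38 for Tnfaip3, with adjusted p of 0.749 or more. In the female libraries alone the differences were -0.30 ± 0.14 and -0.35 ± 0.20 (adjusted p = 0.992 each), an alternative chosen after the data had been seen.

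The other 8 members lay closer to 0 in untreated cells. The log2 differences between KO and WT were 0.08 ± 0.09 for Nfkb1, -0.02 ± 0.11 for Nfkb2, -0.08 ± 0.16 for Rel, -0.13 ± 0.10 for Rela and 0.01 ± 0.22 for Relb among the subunits. They were -0.12 ± 0.12 for Nfkbib, -0.19 ± 0.24 for Nfkbie and 0.05 ± 0.19 for Nfkbiz. The intervals leave room for differences of some size: that of Nfkbie ran from -0.74 to 0.36 and that of Relb from -0.48 to 0.51, while that of Nfkb1 was narrow, from -0.12 to 0.27. WT replicate 1 was the lowest of the 6 untreated libraries for Nfkb1, Nfkb2, Relb and Nfkbie and the highest for Rel, Rela and Nfkbib. With LPS it was again the lowest of 6 for Relb and Nfkbie and the highest for Rel, Rela and Nfkbib, and also for Nfkbia.

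**Figure D4:**
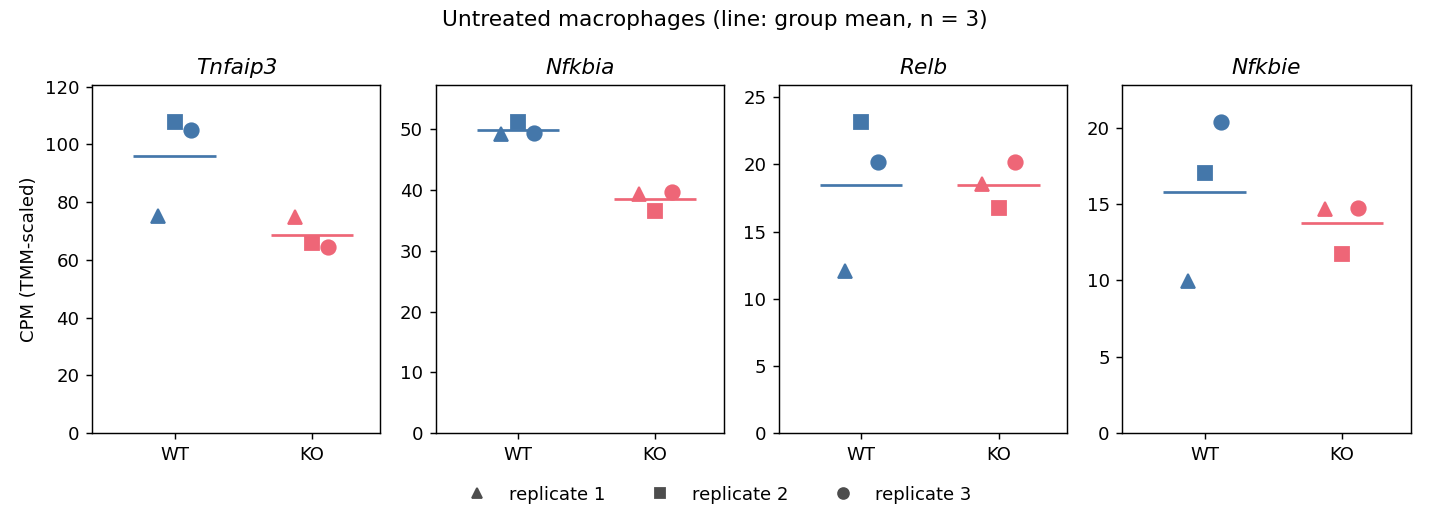
CPM of Tnfaip3, Nfkbia, Relb and Nfkbie in the 6 untreated libraries, with group means as lines and symbols for replicate numbers, on axes that start at 0. WT replicate 1 (triangle) lies below its group mates for Tnfaip3, Relb and Nfkbie, and for Nfkbia all 3 WT libraries lie above all 3 KO libraries.

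Taken as a ratio of sums, the RPKM of the 3 classical IkB genes over that of the 5 subunits was 0.596, 0.574 and 0.604 in untreated WT and 0.507, 0.481 and 0.522 in untreated KO. The WT libraries were all above the KO libraries, WT replicate 1 included, and an exact two-sided permutation test gave p = 0.1, the smallest value that 3 libraries against 3 can give. The ratio was chosen after the values had been seen. Nfkbia made up 60.7% of the IkB RPKM in untreated WT and 57.2% in untreated KO. The ratio thus largely restates the Nfkbia difference above and is no separate support for it. The subunit sums overlapped, at 85.0 to 99.6 RPKM in WT and 90.3 to 96.6 in KO. The IkB sums did not, at 50.6 to 57.9 RPKM in WT and 43.4 to 50.4 in KO. They were parted only by the 50.59 RPKM of WT replicate 1 against the 50.36 RPKM of KO replicate 3. With LPS the ratio was 1.82, 1.52 and 1.77 in WT and 1.53, 1.66 and 1.64 in KO, where the groups overlapped (exact permutation p = 0.5).

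The third comparison set KO against WT after LPS. Again 0 of the 10 members were called, where 1.13% of 11264 genes were, and the members' log2 differences ran from -0.23 to 0.24. At an unadjusted p under 0.05 there was 1 member and 1553 genes in all, and DESeq2 called 265 genes and no member. That member was Relb, at 101.0 to 120.7 CPM in WT and 120.9 to 144.8 CPM in KO, which just missed overlapping (0.24 ± 0.10, 95% interval 0.02 to 0.46, adjusted p = 0.313). Nfkbie also had no overlap, at 274.1 to 295.4 CPM in WT and 297.1 to 326.3 CPM in KO (0.11 ± 0.08, adjusted p = 0.59). Groups did not overlap for 20.3% of all genes, so the 2 of 10 members lay at the background. The lowest values in KO relative to WT were those of Nfkbib (-0.23 ± 0.13) and Rel (-0.19 ± 0.12), whose groups overlapped. Nfkbia and Tnfaip3, which had differed most before LPS, were at -0.05 ± 0.10 (95% interval -0.26 to 0.16) and 0.07 ± 0.08 (-0.11 to 0.25). The remaining members were at 0.04 ± 0.08 for Nfkb1, 0.11 ± 0.08 for Nfkb2, -0.11 ± 0.11 for Rela and 0.06 ± 0.08 for Nfkbiz.

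**Figure D5:**
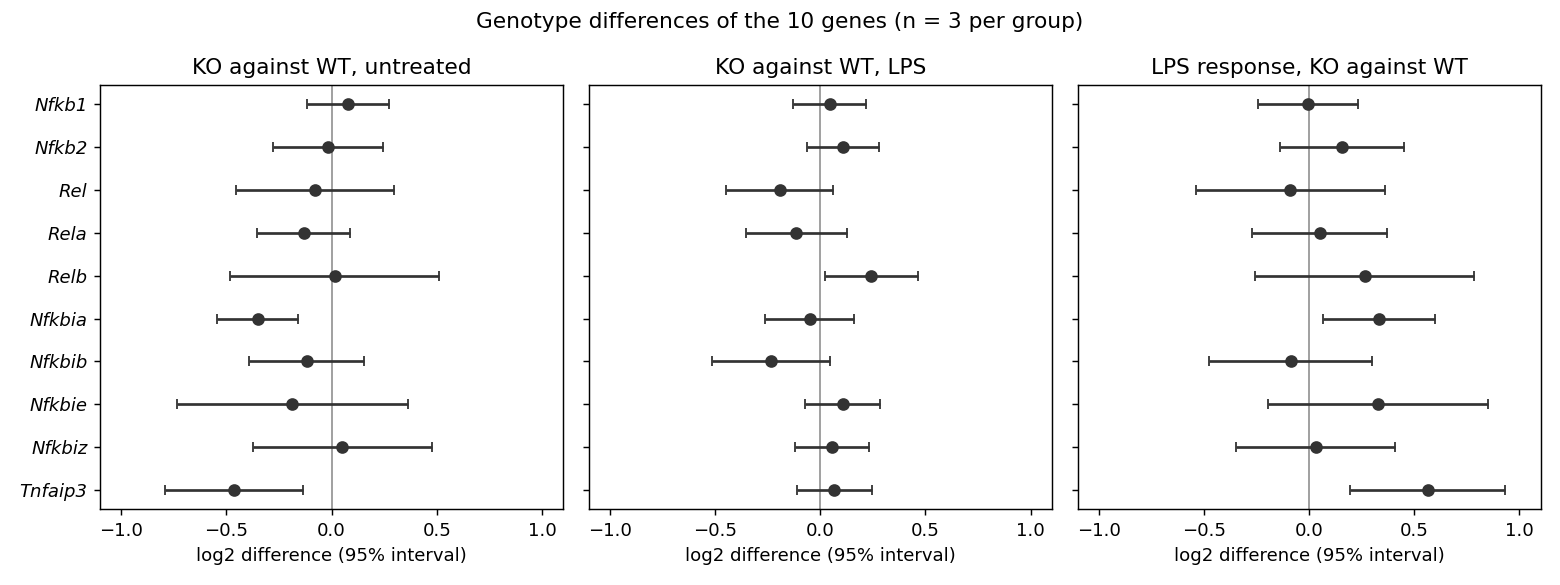
Log2 difference between KO and WT of each gene in untreated cells (left) and with LPS (middle), and the difference of the LPS response between KO and WT (right), with 95% intervals. On the left the intervals of Nfkbia and Tnfaip3 lie below 0, in the middle that of Relb lies just above 0, and on the right those of Nfkbia and Tnfaip3 lie above 0, while 0 of these passed after adjustment over all genes.

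Whether the LPS response itself differed between genotypes was tested as an interaction over all 12 libraries. No member passed, nor did any of the 11984 genes (0%), with 288 genes and 2 members at an unadjusted p under 0.05 and 0 genes called by DESeq2 or limma-voom. The members were Tnfaip3, with a log2 fold change with LPS that was 0.56 ± 0.17 larger in KO (95% interval 0.19 to 0.93, adjusted p = 1), and Nfkbia, at 0.33 ± 0.12 (95% interval 0.06 to 0.60, adjusted p = 1). The change of Tnfaip3 between same-numbered libraries was 4.60, 4.08 and 4.02 in WT and 4.61, 4.94 and 4.78 in KO, so WT replicate 1 lay next to the lowest KO value. That of Nfkbia was 4.72, 4.37 and 4.52 in WT and 4.76, 5.03 and 4.83 in KO. With the replicate number as a block, which pairs treated and untreated libraries within a genotype, the interaction was 0.55 ± 0.15 for Tnfaip3 (adjusted p = 0.467) and 0.34 ± 0.10 for Nfkbia (adjusted p = 0.377). Without WT replicate 1 in both conditions Tnfaip3 passed, at 0.69 ± 0.10 (adjusted p = 0.00454), and Nfkbia did not, at 0.39 ± 0.10 (adjusted p = 0.155), in a fit that called 24 of 12129 genes (0.198%). These comparisons share their untreated libraries: a low untreated KO value lowers the untreated difference and raises the interaction at once. The other 8 members had interactions between -0.09 and 0.33, with an interval that included 0 in each case.

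Other genes of the pathway are given from lists chosen by function, also with earlier results of these data known. Of all 11984 genes tested, 27.6% were called higher and 29.8% lower with LPS in WT, and 30.3% and 30.9% in KO. Of the other IkB proteins, Bcl3, a nuclear partner of p50 and p52, rose by 3.85 ± 0.19 in WT and 3.75 ± 0.18 in KO. Nfkbid, named because the list holds only 2 genes, was at 0.04 ± 0.20 in WT (adjusted p = 0.874) and rose by 0.51 ± 0.20 in KO (adjusted p = 0.0384), with an interaction of 0.47 ± 0.28 (adjusted p = 1). Of 10 genes of the IKK complex and the kinases and adaptors upstream of it, 6 rose and 1 fell in WT and 7 rose and 1 fell in KO. Map3k8, the kinase that links NF-kB1 p105 to ERK, had the smallest p in WT (3.14 ± 0.10). Next by p came Ikbke (2.32 ± 0.10), an IKK-related kinase, and Ikbkb (0.93 ± 0.09), the catalytic subunit that phosphorylates the IkB proteins. This order is not one of size. In WT the mean went from 225.8 to 725.9 CPM for Tab2 and from 112.0 to 244.5 CPM for Tbk1. That of Ikbkb went from 70.8 to 134.9 CPM. The gene that fell was Tab1 in both genotypes, by 1.04 ± 0.16 on the log2 scale in WT and by 0.73 ± 0.15 in KO.

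In the noncanonical pathway, which turns Nfkb2 into p52, 5 of 8 genes rose in both genotypes, and 2 fell in WT and 1 in KO. The receptor Cd40 rose from 4.48 ± 0.60 to 879.3 ± 16.8 CPM in WT and from 4.09 ± 0.93 to 1096.5 ± 29.8 CPM in KO (SD, n = 3), and the ubiquitin ligases Birc3 and Birc2 rose by 3.39 ± 0.16 and 1.96 ± 0.12 in WT. Map3k14, the kinase NIK that starts this pathway, fell by 0.67 ± 0.16 in WT and by 1.06 ± 0.15 in KO. Traf3, its negative regulator, fell by 0.48 ± 0.15 in WT (adjusted p = 0.0163) and was at -0.30 ± 0.15 in KO (adjusted p = 0.107). Of 12 partners of A20 and related deubiquitinases, 8 rose in WT and 7 in KO, and 0 fell. Rnf31, the catalytic subunit of the linear ubiquitin ligase, rose by 2.72 ± 0.10 in WT, and the A20-binding proteins Tnip3 and Tnip1 by 3.74 ± 0.17 and 1.90 ± 0.15. Nfkbid, Tab2, Tbk1 and the genes that fell were named after their values had been seen.

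All 28 genes of a list of known NF-kB targets, also chosen with earlier results known, rose with LPS in both genotypes. Their median log2 fold change was 5.19 in WT and 5.34 in KO. Cxcl10 and Ccl5, chemokines, and Icam1, an adhesion molecule, had the smallest p in WT, at 10.7 ± 0.15, 9.39 ± 0.18 and 5.48 ± 0.10. In KO against WT, 0 of the 23 tested targets were called in untreated cells, as were 0% of all 11622 genes. With LPS 1 of 28 was called, against 1.13% of all 11264 genes. That gene was Vcam1, an adhesion molecule for leukocytes, at 113.7, 94.0 and 107.6 CPM in WT and 212.0, 190.0 and 231.1 CPM in KO (a log2 difference of 0.998 ± 0.106, adjusted p = 0.00202). In a fit of all 12 libraries its difference was as large but missed the threshold (1.01, adjusted p = 0.113). Apart from Vcam1, no gene of these lists was called between genotypes in either condition, and none was called in the interaction.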

How the data were processed

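Libraries were made from poly(A) mRNA and sequenced single-end at 50 bp, per the labels' protocols. The build is mm10 and the tools listed include STAR 2.5.2b and SAMtools 1.3.1, per the submitters' processing notes. The sources used here do not give the counting tool, strand or annotation. The deposited tables hold raw read counts and the authors' RPKM for 35745 RefSeq transcripts, in separate tables for untreated and LPS-treated libraries. Reads shared by isoforms are counted for each, so the transcript with the highest total count stood for its gene (for the members, the lowest transcript had 94.1% to 100% of its count). RefSeq named 35435 transcripts and GENCODE 193. The other 117, with 0.259% to 0.738% of the counts, were left out.

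Genes passed edgeR's filterByExpr and were tested on counts with TMM scaling by the edgeR quasi-likelihood test (edgeR 4.0.16, limma 3.58.1, R 4.3.3) with Benjamini-Hochberg adjustment over all genes tested. LPS responses and the interaction used all 12 libraries as 4 groups, and genotypes were compared on the 6 libraries of a condition. The SE is the log2 fold change over the square root of F. The authors' RPKM served for levels between genes and, with a pseudocount of 1 or 0.1, as an alternative. Other alternatives were DESeq2 1.42.0, limma-voom, other scalings, no filter, the lowest transcript, a replicate block, and leaving out libraries. The tests recovered most of the large known changes in simulated counts, which had the same spread for all genes and no library standing apart. Changes as small as the members' genotype differences were not simulated. The 95% intervals come from the fit and hold the spread between libraries, and the floor of 3 counts covers counting error only.

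The members and lists were chosen with earlier results of these data known. Named outside the members were up to 3 called genes per list by smallest p in the LPS response in WT, and up to 3 called genes of the genotype comparisons and the interaction. The most abundant gene of a list was named where the list had no call, which applied to none, since each list had calls in the LPS response. Same-numbered untreated and LPS-treated libraries deviated together (r = 0.38 to 0.67 in WT, 0.23 to 0.49 in KO), so the numbers pair them within a genotype. Between genotypes r was 0.03 to 0.33 untreated and -0.07 to 0.17 with LPS for the same number. For different numbers it was -0.37 to 0.16 and -0.29 to 0.22, so a pairing between genotypes was not clear, although the numbers match in sex.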

Additional observations from a re-analysis of the deposited data

How the results depend on the processing

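The LPS response of all 10 members kept its direction and its call in both genotypes under every alternative run. In the genotype comparisons 0 members were called, except that leaving out WT replicate 1 gave 2 called members in untreated cells (0 to 2 over the fits without 1 library) and, left out in both conditions, 1 in the interaction (0 to 1). The counts of all called genes moved more. In untreated cells they were 0 with edgeR, 1 with library totals, 9 without a filter, 27 with all 12 libraries, 49 with DESeq2 and 749 without WT replicate 1. With LPS they were 127, and 276 without a filter, 265 with DESeq2, 47 with a replicate block, 17 in the female libraries and, without 1 library, 545 without WT replicate 1, 129 without WT replicate 2, 20 without WT replicate 3, and 55, 61 and 17 without KO replicates 1, 2 and 3. In the interaction they were 0, and 8 with RPKM at a pseudocount of 1 and 24 without WT replicate 1 in both conditions. The replicate block, whose numbers pair libraries within a genotype and match in sex between genotypes, left 0 members called in each genotype comparison. It gave -0.35 for Nfkbia (adjusted p = 0.723) and -0.45 for Tnfaip3 (adjusted p = 0.82) in untreated cells.

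Small differences that passed no test changed sign, and the cause was not tested. In untreated cells Nfkb2 became 0.0169 with library totals, 0.000725 with the lowest transcript, 0.0439 and 0.0468 with RPKM at pseudocounts of 1 and 0.1, and 0.0776 in the female libraries, and Relb became -0.0115 with all 12 libraries. In the interaction Nfkb1 became 0.000276 without a filter, Nfkbiz -0.0152 with library totals and Rela -0.00747 in the female libraries. Without WT replicate 1 in both conditions, Rel became 0.0706 and Relb -0.203 untreated, Nfkbia 0.0338 and Rela 0.0223 with LPS, and the interaction 0.0128 for Nfkb1 and -0.102 for Nfkbiz. Without 1 library, untreated differences ran from -0.128 to 0.0556 for Nfkb2, -0.415 to 0.0327 for Nfkbie, -0.094 to 0.176 for Nfkbiz, -0.214 to 0.0706 for Rel and -0.203 to 0.203 for Relb. With LPS they ran from -0.12 to 0.0338 for Nfkbia and -0.192 to 0.0223 for Rela. Interactions ran from -0.0852 to 0.0393 for Nfkb1, -0.192 to 0.0857 for Nfkbib, -0.118 to 0.14 for Nfkbiz, -0.262 to 0.0234 for Rel and -0.0544 to 0.184 for Rela.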

Other observations

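The profiles of the members over the 12 libraries were set beside those of all other genes. Between 1453 (Relb) and 1655 (Nfkbia) of 11974 other genes had a Pearson r over 0.95 of log2 CPM with a member. All of these points share the contrast between treated and untreated libraries. The gene most like each member was Nod1, a sensor of bacterial peptidoglycan, for Nfkb1 (r = 0.999), the kinase gene Pim1 for Nfkb2 (r = 0.9995), Golga3 for Rel (r = 0.998), Dram1 for Rela (r = 0.998) and Crkl for Relb (r = 0.999). For the inhibitors it was Fnbp1l for Nfkbia (r = 0.999), Klf6 for Nfkbib (r = 0.999), Agrn for Nfkbie (r = 0.999), the protease gene Adamts4 for Nfkbiz (r = 0.999) and Clic4 for Tnfaip3 (r = 0.999). These values are a description with no test.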
